A study of Mus musculus with 10 samples.

Results

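Oxidative phosphorylation is the process by which mitochondria make ATP. Electrons from NADH and succinate pass through complexes I to IV of the inner membrane, and ATP synthase, complex V, uses the proton gradient that complexes I, III and IV build. Complex II is encoded by nuclear genes alone, while the other complexes combine nuclear subunits with subunits encoded by the mitochondrial genome, so that both genomes must be expressed. The genes described here were chosen by their symbols, which start with Ndufa, Ndufb, Ndufc, Ndufs, Ndufv, Sdha to Sdhd, Uqcr, Cox with a digit, Atp5, mt-Nd, mt-Co, mt-Cytb or mt-Atp. Names ending in -ps, Ndufaf assembly factors and 5 further genes annotated as processed pseudogenes were dropped. Of the 53801 genes in the count table, this left 94 of the nuclear genome and 13 of the mitochondrial genome.

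RNA was sequenced from AtT20/D16v-F2 cells, a mouse pituitary tumour line of corticotroph origin. Knockdown cells carried a lentivirus for stable expression of Creb3l1-shRNA1, a short hairpin RNA against the transcription factor Creb3l1, and control cells one for a non-targeting shRNA. There were 5 libraries of each (below, of each line), and no drug, dose or time differed between them. A single hairpin stands for the knockdown, and the study speaks of a stable cell line, without saying whether the 5 libraries came from separate transductions. Effects of the knockdown, of the hairpin and of the transduced cells cannot be told apart.

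The libraries held between 17420698 and 22205107 counts. Creb3l1 was at 3531 to 3864 normalised counts in the non-targeting libraries and at 1014 to 1159 in the knockdown libraries, a log2 fold change of -1.76 ± 0.036 (SE) with an adjusted p of 2e-33 (edgeR). Normalised counts are counts brought to a common effective library size, the mean over the 10 libraries. Of 7 corticotroph markers, 6 had at least 10 counts in every library, and Avpr1b had none. Of 13 markers of other pituitary cells, 2 (Nr5a1 and Col1a1) reached 10 counts in every library, and the summed counts of the 13 were 630 to 922 in the non-targeting line and 939 to 1167 in the knockdown line. Col1a1 made up most of this sum (529 to 825 and 856 to 1086 counts), while Nr5a1 (71 to 84 and 54 to 73), Pax7 (8 to 21 and 3 to 8) and Pecam1 (10 to 17 and 4 to 8) had the higher counts in the non-targeting libraries, with overlap for Nr5a1 and Pax7. Gh, Prl, Tshb, Lhb, Fshb, Pou1f1 and Ptprc, which define other pituitary and blood cells, had at most 2 counts in any library, and the part of other cells in the results below was not tested. Non-targeting replicate 3 stood apart by Gm42418, a non-coding gene with 4.13% of its counts, while elsewhere that gene had 0.106% to 0.191%.

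The mitochondrial mRNAs differed first of all in how many reads had been counted on them. A read that matches a mitochondrial gene and a nuclear copy of it equally well cannot be placed on one of them alone, and the sources used here do not say how such reads were counted. On chromosome 1 of GRCm38, a block of 7 annotated pseudogenes from 24611535 to 24616197 repeats a stretch of the mitochondrial genome. The first 75 bases, which is the read length, of mt-Co2 and of its copy Gm28661 are shown because they are the same throughout. The first 75 bases of mt-Cytb and of its closest copy, Gm11410 on chromosome 4, are shown for contrast, with the 5 bases that differ in capitals. The mt-Co2 window is chrM:7013-7087 on the plus strand, its copy is chr1:24615491-24615565 on the minus strand, the mt-Cytb window is chrM:14145-14219 on the plus strand, and its copy is chr4:80003989-80004063 on the plus strand.
mt-Co2: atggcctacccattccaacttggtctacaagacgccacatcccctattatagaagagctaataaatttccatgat
Gm28661: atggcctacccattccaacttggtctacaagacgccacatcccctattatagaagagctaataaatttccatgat
mt-Cytb: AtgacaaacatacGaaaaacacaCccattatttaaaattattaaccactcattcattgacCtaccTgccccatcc
Gm11410: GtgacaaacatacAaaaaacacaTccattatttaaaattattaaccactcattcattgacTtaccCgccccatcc
Over the whole alignment mt-Co2 and Gm28661 shared 681 bases with no mismatch, while mt-Cytb and Gm11410 were 92.9% identical.

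The counts of the 13 mitochondrial genes fell into separate ranges. mt-Co1, mt-Cytb, mt-Nd1, mt-Nd2, mt-Nd4 and mt-Nd5 had between 47997 and 379249 counts in each library. mt-Co2, mt-Atp8, mt-Atp6, mt-Co3, mt-Nd3 and mt-Nd4l, which lie next to each other between mt-Co1 and mt-Nd4, had between 0 and 27 counts in any library. In 5 of these 6 genes, between 97.8% and 99.9% of all 75-base windows were found unchanged in an annotated transcript elsewhere, and the closest copies of all 5 lie in the chromosome 1 block. mt-Atp8 was the exception, with 0% of windows in another annotated transcript. It lies between mt-Co2 and mt-Atp6, where the block has no annotated gene between the copies of its neighbours. The share was 61.5% in mt-Nd4 and 39.8% in mt-Co1, and at most 5.71% in the other mitochondrial genes. The 7 pseudogenes together took between 132 and 254 counts per library. These 6 genes encode the cytochrome c oxidase subunits COX2 and COX3, both mitochondrial ATP synthase subunits, and ND3 and ND4L of complex I, and no level or change is read from their counts.

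**Figure D1:**
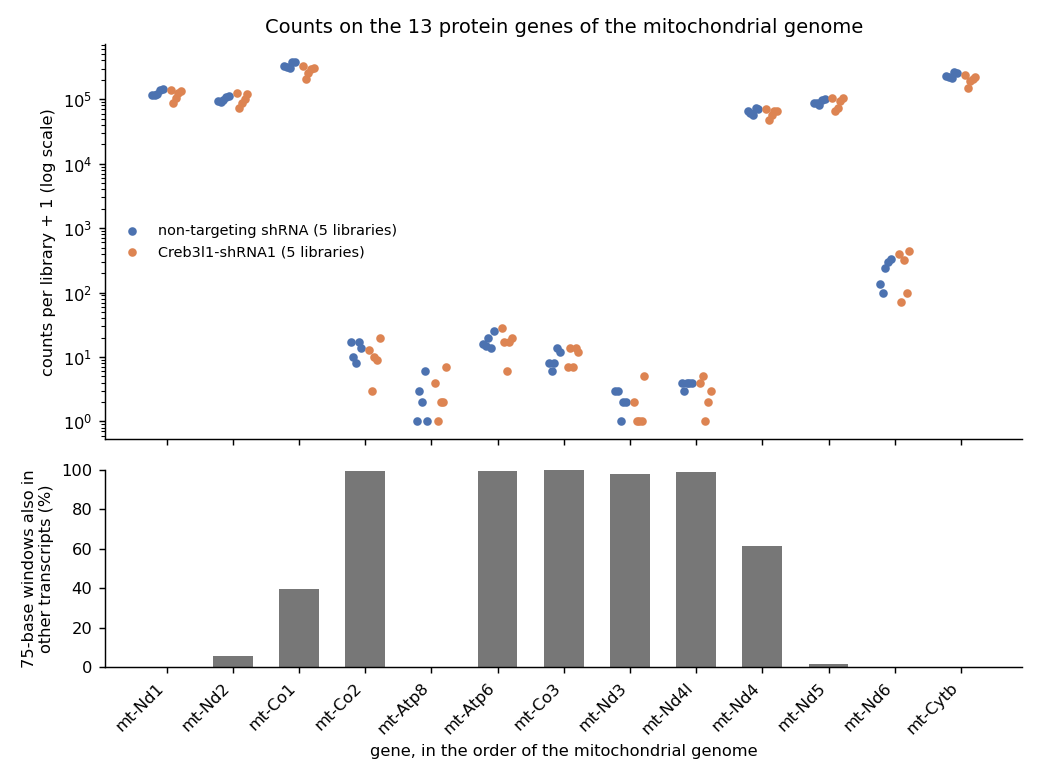
Counts plus 1 of the 13 protein genes of the mitochondrial genome in each of 10 libraries on a log axis (top; blue, non-targeting shRNA; orange, Creb3l1-shRNA1) and the share of each gene's 75-base windows found unchanged in an annotated transcript elsewhere (bottom), with genes in genome order. The 6 genes from mt-Co2 to mt-Nd4l had at most 27 counts in any library, and 5 of them had over 97% of their windows elsewhere.

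mt-Nd6, a complex I subunit and the only protein encoded on the other strand of the mitochondrial genome, also had few counts. None of its 75-base windows was found unchanged in an annotated transcript elsewhere. The closest copy, Gm11408 on chromosome 4, was 93.6% identical over 519 bases. The counts of mt-Nd6 were between 70 and 447 per library. Its normalised counts were 137, 104.9, 289, 283 and 306 in non-targeting replicates 1 to 5 and 360, 74.9, 335, 91.9 and 406 in knockdown replicates 1 to 5. Libraries of both lines were low and high, and the log2 difference of 0.19 ± 0.54 (SE) had an adjusted p of 0.80 (edgeR). The libraries were made from poly(A) RNA, and the part of poly(A) selection in the low count of mt-Nd6 was not tested.

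Per length, the 6 mitochondrial mRNAs with many reads were the most abundant of the members, while mt-Nd6 was at 21.1 CPM per kb, where CPM is the count scaled to the library total. In the non-targeting line mt-Co1, the catalytic subunit of complex IV, had a level of 11160 CPM per kb. mt-Cytb, the cytochrome b of complex III, had 10440, mt-Nd1 had 6714, mt-Nd2 had 4888, mt-Nd5 had 2497 and mt-Nd4 had 2380, all 4 of these being core subunits of complex I. The highest nuclear member was Atp5b, the catalytic beta subunit of ATP synthase, with 980. Cox6a1 followed with 804 and Uqcrq with 735. Lengths here are those of the principal annotated transcript. They include the 61.5% of mt-Nd4 windows and the 39.8% of mt-Co1 windows that were also in other transcripts. Reads from those stretches may not have been counted, so the levels of mt-Nd4 and mt-Co1 may be too low. The median level of tested nuclear subunits was 224 CPM per kb in complex IV (14 genes) and 222 in complex V (16 genes), 155 in complex III (8), 90.6 in complex I (36) and 90.5 in complex II (4). The ranges overlapped, with the lowest and highest members of complex I at 18.1 (Ndufb4) and 241 (Ndufa1).

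The share of all counts taken by the 13 mitochondrial genes was 4.63%, 4.69%, 5.07%, 4.91% and 4.96% in non-targeting replicates 1 to 5. It was 4.59%, 3.37%, 4.05%, 4.20% and 4.24% in knockdown replicates 1 to 5. All 5 knockdown libraries were below all 5 non-targeting libraries, by a margin of 4.59% against 4.63% between the nearest, and the means were 4.09% ± 0.449 and 4.85% ± 0.183 (SD, n = 5). Without mt-Co1 and Atp5b, the largest gene of each genome, the difference went from -0.766 to -0.384 percentage points and the lines overlapped. No test was made on this sum, which is taken over a chosen list. Nearly all of it came from the genes with many reads, so it does not measure the whole mitochondrial genome. The 94 nuclear genes took 1.26% ± 0.0254 (SD, n = 5) of the counts in the knockdown line and 1.30% ± 0.0431 (SD, n = 5) in the non-targeting line, and the lines overlapped. They did not overlap when shares were taken of the effective library size (a difference of -0.0509 percentage points) or without non-targeting replicate 3 (-0.0556). The ratio of mitochondrial to nuclear counts was 3.57, 3.59, 4.11, 3.63 and 3.83 in the non-targeting libraries and 3.75, 2.63, 3.22, 3.27 and 3.404 in the knockdown libraries. Knockdown replicate 1 lay among the non-targeting libraries, and knockdown replicate 2 was the lowest of the 10. Without knockdown replicate 1 the ratios did not overlap, at a difference of -0.616 against -0.492 with all libraries. In RNA from whole cultures, fewer mitochondrial genomes per cell, less RNA from each and a different mixture of cells cannot be told apart.

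**Figure D2:**
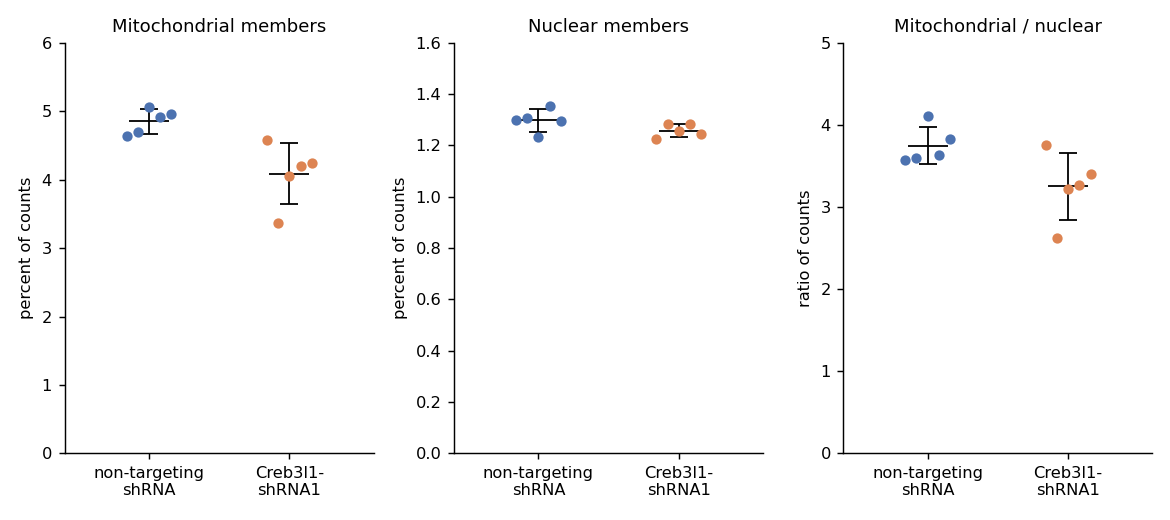
Percent of all counts on the 13 mitochondrial members and on the 94 nuclear members, and the ratio of both, in each library (points), with mean and SD (bars, n = 5). Nearly all mitochondrial counts came from the genes with many reads. The mitochondrial share was 3.37% to 4.59% in the Creb3l1-shRNA1 line and 4.63% to 5.07% in the non-targeting line, while the nuclear share and the ratio overlapped between lines.

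Counts on mt-Co1 and mt-Cytb were lower in the knockdown line. mt-Co1 (chrM:5328-6872) had 334056, 339324, 377227, 350718 and 357598 normalised counts in the non-targeting libraries and 304386, 223061, 271595, 280893 and 275342 in the knockdown libraries. The lines did not overlap, and the log2 fold change was -0.38 ± 0.079 (SE), with an adjusted p of 0.0037 (edgeR). mt-Cytb (chrM:14145-15288) had 232973, 230882, 263083, 248942 and 242060 in the non-targeting libraries and 220263, 162436, 202094, 197752 and 197937 in the knockdown libraries. These did not overlap either, and the log2 fold change was -0.31 ± 0.078 (SE), with an adjusted p of 0.0095 (edgeR). These calls were close to the threshold of 0.01. The adjusted p of mt-Co1 (edgeR) was 0.012 without non-targeting replicate 3, 0.011 without non-targeting replicate 5 and 0.0104 without knockdown replicate 3, and over 21 alternatives it was between 3.6e-06 and 0.016. mt-Cytb passed in 10 of 21 alternatives, with adjusted p between 3.3e-05 and 0.027 and a log2 fold change between -0.36 and -0.25. When libraries were left out 1 at a time, mt-Cytb passed only without knockdown replicate 1 or knockdown replicate 2.

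The other mitochondrial mRNAs with many reads did not pass the test. The log2 fold change was -0.20 ± 0.099 (SE) for mt-Nd1, -0.15 ± 0.061 for mt-Nd4, -0.11 ± 0.088 for mt-Nd5 and -0.080 ± 0.11 for mt-Nd2, with adjusted p of 0.13, 0.067, 0.33 and 0.58 (edgeR). mt-Nd5 passed with both sets of offsets described below, at -0.13 in each (adjusted p = 0.0076 and 0.0092, edgeR), its range over alternatives being 0.0076 to 0.58. In all, 2 of the 10 mitochondrial genes tested, 3 of which are among the 6 with almost no counts, were lower and 0 were higher, where 20.1% of all 14336 genes tested were lower and 20.6% were higher. At an unadjusted p under 0.05 there were 3 lower and 0 higher, and DESeq2 called 2 lower and 0 higher. Without these 3 genes, 2 of 7 were lower and 0 higher, and the median log2 fold change of the 7 was -0.15, where that of all genes was -0.0025. mt-Nd4 passed with both sets of offsets, without robust shrinkage and when knockdown replicate 2 was left out, in the last case at a log2 fold change of -0.10 and an adjusted p of 0.0051, the range over its alternatives being 0.0011 to 0.14.

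Within a library, the mitochondrial mRNAs did not move by the same amount. mt-Co1 made up 35.0% to 35.9% of mitochondrial counts in the non-targeting line and 32.2% to 33.3% in the knockdown line. mt-Nd2 made up 10.1% to 11.1% and 11.4% to 12.6%, and mt-Nd4 6.47% to 6.99% and 7.01% to 7.56%, in the same order of lines. These 3 shares did not overlap between lines, while those of mt-Nd1, mt-Nd5, mt-Cytb and mt-Nd6 did. The log2 ratio of mt-Co1 to mt-Nd2 was 1.81, 1.83, 1.65, 1.79 and 1.76 in the non-targeting libraries and 1.42, 1.498, 1.55, 1.53 and 1.35 in the knockdown libraries. This pair was chosen after its values were seen, so no test is given, and the ratio does not depend on how libraries are scaled. In knockdown replicate 2 all 6 abundant mRNAs were 0.38 to 0.66 below the non-targeting mean on the log2 scale, with mt-Co1 the furthest below. In knockdown replicate 1, mt-Nd2 was 0.14 above that mean and mt-Co1 was 0.21 below it.

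**Figure D3:**
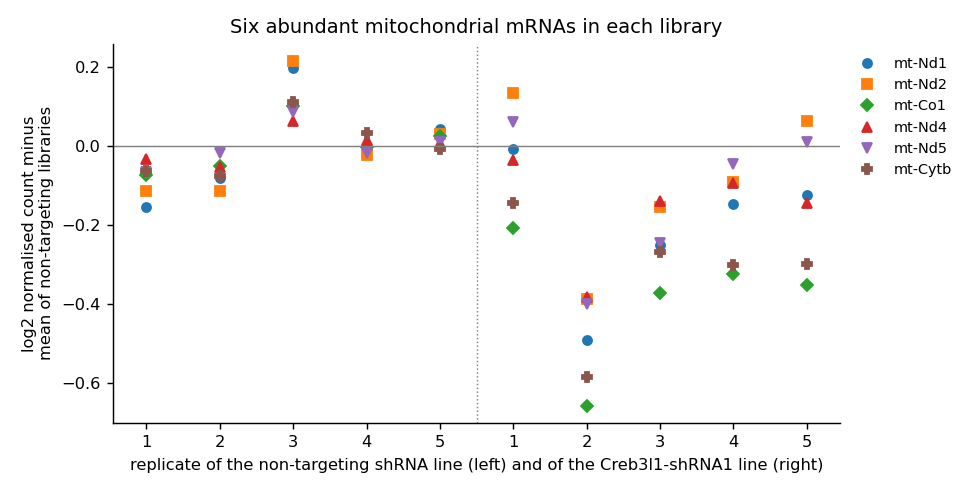
Log2 normalised count of 6 abundant mitochondrial mRNAs in each library, less the mean of the 5 non-targeting libraries. Knockdown replicate 2 is lowest for every gene, and mt-Co1 (diamonds) lies below mt-Nd2 (squares) in every knockdown library.

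The mitochondrial ribosomal RNAs stood apart in a single library. They carry short tails and are largely lost in poly(A) selection. mt-Rnr1 and mt-Rnr2 together took 0.451% of the counts in non-targeting replicate 3 and 0.0374% to 0.0694% in the other 9 libraries. Their mean was 0.128% ± 0.181 (SD, n = 5) in the non-targeting line and 0.0573% ± 0.0119 (SD, n = 5) in the knockdown line. Non-targeting replicate 3 also had the highest normalised count of each of the 6 abundant mRNAs, and its part in the lower mt-Co1 is given above by the fit without it. Of the 5 mitochondrial ribosomal and transfer RNA genes tested, 1 was lower (20%) and 0 higher, where 20.1% and 20.6% of all genes were. That gene, mt-Tl1 (transfer RNA for leucine), fell by 0.41 on the log2 scale, from 199 ± 36.4 to 149 ± 13.8 normalised counts (SD, n = 5, adjusted p = 0.0015, edgeR). Its counts overlapped between lines, and it passed in all 20 alternatives that could test it.

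The nuclear members leaned towards lower counts in the knockdown line, by small amounts. Of 94, 89 had enough counts to be tested, and 35 were lower (39.3%) and 4 were higher (4.49%), where 20.1% and 20.6% of all genes tested were. Their median log2 fold change was -0.076, and the range was -0.49 to 0.57. The lines did not overlap for 25 genes that were lower and 4 that were higher, where 17.8% and 18.3% of all genes did not overlap in these directions. The called decreases were spread over complexes, with 18 of 36 genes in complex I, 1 of 4 in complex II, 4 of 8 in complex III, 6 of 24 in complex IV and 6 of 17 in complex V. The increases were 1 gene in complex I, 1 in complex III and 2 in complex IV. Among the subunits classed as core 7 of 20 were lower and 1 higher. Among supernumerary subunits, which here include Uqcrc1, 27 of 58 were lower and 2 higher. Among the 11 Cox and Atp5 assembly or supercomplex factors 1 was lower and 1 higher. The count of lower genes was 22 to 35 when 1 library was left out, with 22 without non-targeting replicate 4. It was 25 of 63 among members with no 75-base window in a gene elsewhere, where genes that overlap the member were not counted.

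The fold changes of nuclear members varied with transcript length and GC content. Nuclear members are short, with a median principal transcript of 809 bases against 2865 over all genes tested, and in these libraries short genes as a whole were lower in the knockdown line. The median log2 fold change of all genes was -0.14 below 600 bases (158 genes), -0.10 from 600 to 1000 bases (650 genes) and 0.054 from 4000 bases (3710 genes). The median of nuclear members was -0.14 below 600 bases (28 genes) and -0.068 from 600 to 1000 bases (27 genes). Among genes under 1000 bases, 26 of 55 nuclear members (47.3%) and 305 of 808 of all genes (37.7%) were lower. From 1000 to 2000 bases these were 9 of 25 (36%) and 717 of 2789 (25.7%), and from 2000 bases 0 of 9 and 1686 of 8781 (19.2%). Of those 9 genes 1 was lower at an unadjusted p under 0.05 (edgeR), and DESeq2 called 0 lower. Across the 89 nuclear members, Spearman's rho of log2 fold change with principal transcript length was 0.38, with GC content -0.29 and with mean count -0.0072. This is a description over genes that share the same libraries.

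When each library was given offsets for the length and GC content of transcripts, 14 nuclear members were lower and 16 were higher, where 20.3% and 22.6% of all genes tested in that fit were. The median was then -0.0011. All 14 genes lower with offsets were also lower without them, and the 4 genes higher without offsets stayed higher. The lengths in this fit are those of the longest transcript, and with the principal transcript, 8 were lower and 22 higher, with a median of 0.030. The offsets remove what differs between lines along with length and GC content, whatever its source, so that a shift of short nuclear mRNAs in the line and a shift of short fragments in the libraries cannot be told apart. The values below come from the fit without offsets, and the log2 fold change with offsets is given beside that of each called nuclear member that is named.

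**Figure D4:**
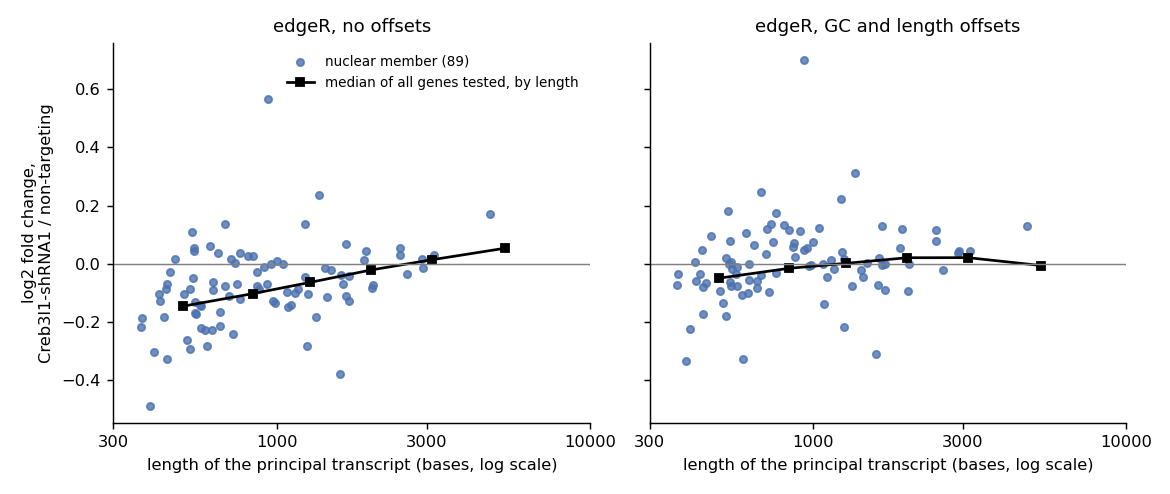
Log2 fold change of 89 nuclear members (points) against the length of the principal transcript on a log axis, without offsets (left) and with the offsets (right). Squares join the medians of all genes tested in 6 length ranges, which run from -0.14 to 0.054 without offsets.

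Complex I takes electrons from NADH. Its largest decrease was in Ndufv3 (chr17:31520115-31531331), an accessory subunit near the NADH-binding end. Ndufv3 had 2613, 2461, 2610, 2681 and 2619 normalised counts in the non-targeting libraries and 2044, 1975, 1956, 1991 and 2028 in the knockdown libraries. The lines did not overlap, at a log2 fold change of -0.38 ± 0.031 (SE, adjusted p = 9.9e-14, edgeR) and -0.31 with offsets. Its principal transcript is 1582 bases long, and it was the largest called decrease of any nuclear member. Ndufa7 (chr17:33824572-33838317), also an accessory subunit, had 1887, 1964, 1797, 1942 and 1914 normalised counts against 1496, 1559, 1543, 1568 and 1605. It did not overlap, at -0.29 ± 0.032 (SE, adjusted p = 4.2e-10, edgeR) and -0.18 with offsets. Ndufc2 (chr7:97400003-97407802), an accessory subunit of the membrane arm, was the only complex I gene that rose. It had 2471, 2642, 2622, 2713 and 2682 against 2912, 2928, 2810, 2943 and 2859 normalised counts, at 0.14 ± 0.030 (SE, adjusted p = 0.00013, edgeR) and 0.25 with offsets.

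Of the 7 nuclear core subunits of complex I, 3 were called lower (Ndufv1, Ndufv2 and Ndufs8, the last 2 named after their values were seen). Over all genes tested 20.1% were lower. With offsets 0 of the 7 were lower and 2 higher, where 20.3% and 22.6% of all genes were, and with the principal length 1 and 2. Ndufv2 and Ndufs8 were each at -0.13 without offsets, and at -0.090 and -0.0040 with offsets, where neither passed. Ndufv1, which binds NADH, was at 3312 ± 109.5 and 3072 ± 39.2 normalised counts (SD, n = 5), a log2 fold change of -0.11 ± 0.028 with an adjusted p of 0.0011 (edgeR), and no overlap. With offsets its log2 fold change was -0.0036, and it no longer passed. Ndufs1, the largest subunit of the electron-accepting arm, was at 2914 ± 86.3 and 2845 ± 34.0 (SD, n = 5), and its difference of -0.035 ± 0.028 did not pass (adjusted p = 0.31, edgeR).

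Complex II oxidises succinate. Sdhb, its iron-sulphur subunit (chr4:140961203-140979193), had 3221, 3114, 2964, 3187 and 2938 normalised counts in the non-targeting libraries and 2893, 2951, 2778, 2938 and 2846 in the knockdown libraries, with overlap. The log2 fold change was -0.099 ± 0.030 (SE) with an adjusted p of 0.0055 (edgeR). The call was lost when non-targeting replicate 1, 2 or 4 or knockdown replicate 3 or 5 was left out, with adjusted p of 0.034, 0.017, 0.021, 0.031 and 0.019, and with offsets the value was 0.015. Over 21 alternatives its adjusted p was between 0.0015 and 0.65. Sdha, the flavin subunit and a reference gene of the study's quantitative PCR on rat pituitary, was at 3096 ± 86.9 and 3133 ± 97.4 normalised counts (SD, n = 5). Its log2 fold change was 0.017 ± 0.029 (adjusted p = 0.66, edgeR), which corresponds to a fold of 1.01, and over 21 alternatives it was between 0.0010 and 0.037.

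Complex III passes electrons from ubiquinol to cytochrome c, and its members moved in both directions. Uqcr11 (chr10:80402997-80406830), a small accessory subunit, had 3150, 3281, 3341, 3449 and 3229 normalised counts in the non-targeting libraries and 2565, 2646, 2713, 2616 and 2594 in the knockdown libraries. The lines did not overlap, at -0.33 ± 0.029 (SE, adjusted p = 1.6e-12, edgeR) and -0.17 with offsets. Uqcrq (chr11:53427922-53430831), a subunit that lies against cytochrome b, had 5949, 6140, 6082, 6236 and 5920 against 4617, 5304, 5001, 4870 and 4781, at -0.30 ± 0.029 (SE, adjusted p = 1.9e-11, edgeR) and -0.22 with offsets. Uqcrfs1 (chr13:30540308-30545362), the Rieske iron-sulphur protein, rose. It had 1877, 1746, 1762, 1851 and 1729 normalised counts against 2028, 2194, 2035, 2266 and 2044, with no overlap, at 0.24 ± 0.035 (SE, adjusted p = 2.4e-07, edgeR) and 0.31 with offsets. The 4 called decreases of this complex were in small accessory subunits, the others being Uqcr10 and Uqcrh. Uqcr10 and Uqcrh were at -0.18 and -0.17, and at -0.035 and -0.075 with offsets, where Uqcr10 no longer passed. With the principal length neither passed. Uqcrc1, a large core protein, was at 1415 ± 53.1 and 1484 ± 54.0 (SD, n = 5), and its difference of 0.068 ± 0.035 did not pass (adjusted p = 0.10, edgeR), while with offsets it passed as higher, at 0.13.

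Complex IV, cytochrome c oxidase, reduces oxygen. Its largest called decreases among subunits were in Cox6b1 (chr7:30616861-30626151), which faces the intermembrane space, and Cox6a1 (chr5:115345642-115348981), the form of subunit VIa found in most tissues. Cox6b1 had 4961, 4873, 4873, 5250 and 5349 normalised counts in the non-targeting libraries and 4274, 4408, 4270, 4262 and 4410 in the knockdown libraries. Cox6a1 had 9202, 9404, 9553, 9667 and 8951 against 7728, 8078, 8030, 8219 and 8105, with 6.44% of its windows in another transcript. Neither gene overlapped between lines. Their log2 fold changes were -0.23 ± 0.028 and -0.22 ± 0.025 (SE), with adjusted p of 7.7e-09 and 5.6e-10 (edgeR), and -0.10 and -0.077 with offsets. With the principal length Cox6a1 lost its call (-0.045, adjusted p = 0.056, edgeR), the range over its alternatives being 2.2e-17 to 0.056. Cox4i1, which binds ATP, was at 7247 ± 189 and 6910 ± 191 normalised counts (SD, n = 5) and did not pass, at -0.069 ± 0.026 and an adjusted p of 0.024 (edgeR). Its sign turned with offsets, to 0.077, where it passed as higher. Cox5a was at 2928 ± 245 and 3001 ± 179 (SD, n = 5) and did not pass (0.036 ± 0.065, adjusted p = 0.69, edgeR). Cox15, an enzyme of heme A synthesis that the name rule takes in, is given because it is 1 of only 4 increases. It rose from 875 ± 38.4 to 985 ± 31.2 normalised counts (SD, n = 5), at 0.17 ± 0.041 (SE, adjusted p = 0.00048, edgeR) and 0.13 with offsets, with no overlap.

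Complex V makes ATP. Atp5g1 (chr11:96068852-96075670), 1 of the 3 genes for the c subunit of the rotor ring, had 5341, 5415, 5209, 5692 and 5349 normalised counts in the non-targeting libraries and 4426, 4679, 4291, 4486 and 4321 in the knockdown libraries. Again no library overlapped, at -0.28 ± 0.028 (SE, adjusted p = 3.2e-11, edgeR), -0.32 with offsets and -0.16 with offsets for the principal transcript. Of the windows of its longest transcript, of 4715 bases, 7.33% were also in another transcript. The closest copy of Atp5g1, Gm10039, aligned over 411 bases at 99.76% identity, while the principal transcript of Atp5g1 has 596 bases. The share of windows was not taken for the principal transcript. Reads from the shared stretch may not have been counted, so the level of Atp5g1 may be too low. Atp5mpl (chr12:111961375-111966977), a small membrane subunit, had 1520, 1487, 1494, 1638 and 1601 against 1324, 1358, 1352, 1361 and 1279, at -0.22 ± 0.035 (SE, adjusted p = 1.7e-06, edgeR). With offsets its log2 fold change was -0.072, and it no longer passed. The catalytic head subunits Atp5b and Atp5a1 did not pass. Atp5b was at 38258 ± 579 and 39475 ± 1034 normalised counts, and Atp5a1 at 22561 ± 310 and 23408 ± 567 (SD, n = 5). Their log2 fold changes were 0.045 ± 0.020 and 0.053 ± 0.021, with adjusted p of 0.052 and 0.029 (edgeR). Both passed as higher with offsets (0.12 for each) and when libraries were scaled without the mitochondrial chromosome (0.057 and 0.065).

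**Figure D5:**
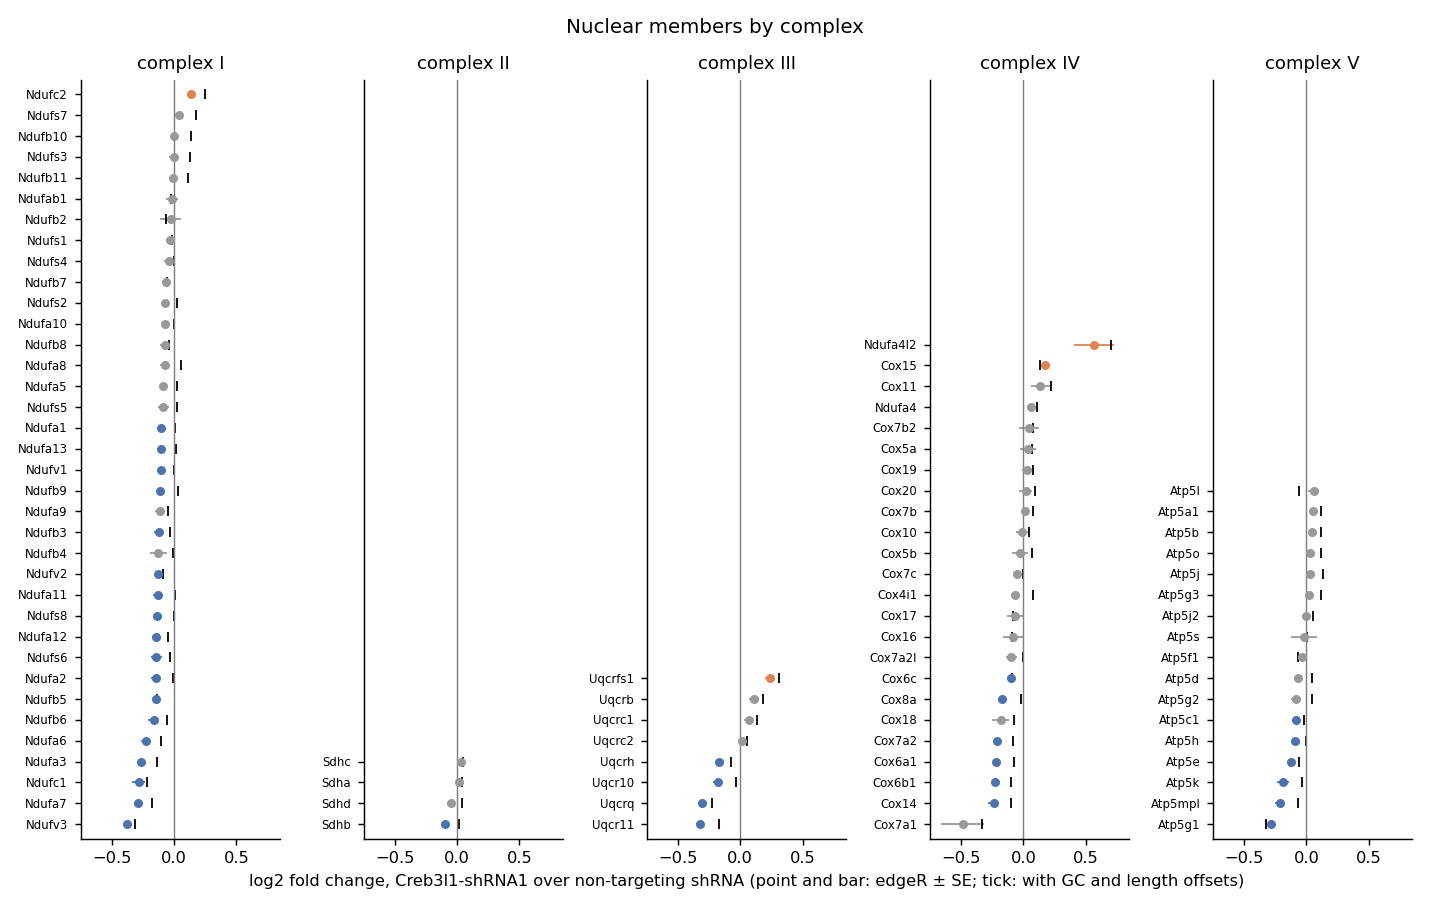
Log2 fold change (knockdown over non-targeting, point and bar with SE) of the 89 tested nuclear members, by complex and in order of size. Blue genes were called lower and orange genes higher, grey genes were not called, and black ticks give the value with offsets, which lies to the right of the point for most genes.

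Several complex IV and V subunits come in tissue forms encoded by separate genes. The forms known from muscle, lung or testis were at or near 0, with 5 counts on Cox4i2, 9 on Cox6a2, 40 on Cox6b2, 1 on Cox8b and 1 on Cox8c over all 10 libraries. None of these could be tested, and their partners Cox4i1, Cox6a1, Cox6b1 and Cox8a took at least 99.8% of each family in every library, whether per length or as counts. Cox8a was at 6560 ± 301 and 5830 ± 283 normalised counts (SD, n = 5) and fell, at a log2 fold change of -0.17 (adjusted p = 0.00012, edgeR), with overlap between lines, a difference of -0.016 with offsets and one of 0.016 with offsets for the principal transcript. Cox7b2, known from testis, took 12.6% ± 0.554 of the Cox7b family per kb in the non-targeting line and 12.9% ± 1.03 in the knockdown line (SD, n = 5), and neither Cox7b2 (adjusted p = 0.67) nor Cox7b (adjusted p = 0.82) passed (edgeR). Of the Cox7a family, Cox7a1 took 1.82% ± 0.340 and 1.49% ± 0.214 (SD, n = 5), with 33 to 67 counts per library. Its log2 fold change of -0.49 ± 0.17 did not pass (adjusted p = 0.018, edgeR), but it passed without non-targeting replicate 2 (-0.59, adjusted p = 0.0042) or knockdown replicate 4 (-0.59, adjusted p = 0.0075), and over its alternatives the adjusted p was 0.0042 to 0.15. Cox7a2 fell from 3106 ± 119 to 2680 ± 72.8 normalised counts (SD, n = 5, log2 fold change -0.21, adjusted p = 1.1e-07, edgeR), with -0.082 with offsets and -0.062 with the principal length, where the call was lost (adjusted p = 0.027, edgeR). The range of adjusted p over its alternatives was 8.5e-11 to 0.027. Cox7a2l, a supercomplex factor of related sequence, did not pass at -0.096 ± 0.041 (adjusted p = 0.049, edgeR).

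A pair of families changed in makeup. Ndufa4l2, a relative of the complex IV subunit Ndufa4 known to be induced by HIF1A, had 36.2, 29.7, 46.5, 39.4 and 43.4 normalised counts in the non-targeting libraries and 56.0, 54.6, 49.995, 71.1 and 56.3 in the knockdown libraries. The lines did not overlap, at 0.57 ± 0.16 (SE, adjusted p = 0.0029, edgeR) and 0.70 with offsets, but the call was lost without non-targeting replicate 2 (adjusted p = 0.014) or knockdown replicate 4 (adjusted p = 0.018), within a range of 0.00014 to 0.018 over its alternatives. Per kb of the longest transcript it made up 1.69% ± 0.284 of the pair in the non-targeting line and 2.38% ± 0.267 in the knockdown line (SD, n = 5), and Ndufa4 itself did not pass (0.060 ± 0.029, adjusted p = 0.087, edgeR). Of the 3 genes for the c subunit, which encode the same mature protein, only Atp5g1 was called. Atp5g2 was at -0.087 ± 0.037 (adjusted p = 0.046) and Atp5g3 at 0.017 ± 0.026 (adjusted p = 0.61, both edgeR). With offsets Atp5g3 passed as higher, at 0.12. As plain counts Atp5g1 made up 42.7% to 44.7% of the family in the non-targeting libraries and 38.0% to 39.9% in the knockdown libraries, and Atp5g3 43.8% to 45.9% and 48.4% to 50.6%. Per kb of principal transcript the mean share of Atp5g1 was 45% and 40.4%, but per kb of its longest transcript, of 4715 bases, it was 12.0% and 10.1%. The step between lines did not overlap on any of these scales, while the level of the share depended on the length used.

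The promoters were read for words known from respiratory genes. RefSeq promoters of 300 bases, 250 before the start and 50 after it (GRCm38.p6), matched 76 of 94 nuclear members. The ETS word CCGGAAG, bound by GABP among others, was found in 21 of the 76 (27.6%), on either strand, against 9.93% of 27025 genes with a promoter. The NRF1 core GCGCATG was in 13 (17.1%) against 4.41%, and the full NRF1 palindrome, which holds that core, in 5 (6.58%) against 1.07%. The G-box core GACGTG, the word of the study's Creb3l1 site, was in 8 (10.5%) against 7.15%, and in 1 of the 30 promoters of genes called lower. Among those 30 promoters 12 held the ETS word and 7 the NRF1 core, and among 41 promoters of genes not called 8 and 6 did. These shares are descriptions, with no test, and the 27025 genes were not limited to the 14336 genes tested here. Shown are the promoters of Uqcr11 (chr10:80406772-80407071, minus strand), the largest called decrease with an ETS word, and of Ndufa6 (chr15:82354242-82354541, minus strand), an accessory complex I subunit and the next with the NRF1 core, with these words in capitals on either strand.
Uqcr11: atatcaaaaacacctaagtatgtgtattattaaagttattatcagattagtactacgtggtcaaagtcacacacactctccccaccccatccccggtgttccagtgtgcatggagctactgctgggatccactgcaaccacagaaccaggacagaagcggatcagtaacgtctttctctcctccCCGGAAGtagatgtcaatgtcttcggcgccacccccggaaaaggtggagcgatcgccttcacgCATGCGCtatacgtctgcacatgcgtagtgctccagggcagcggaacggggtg
Ndufa6: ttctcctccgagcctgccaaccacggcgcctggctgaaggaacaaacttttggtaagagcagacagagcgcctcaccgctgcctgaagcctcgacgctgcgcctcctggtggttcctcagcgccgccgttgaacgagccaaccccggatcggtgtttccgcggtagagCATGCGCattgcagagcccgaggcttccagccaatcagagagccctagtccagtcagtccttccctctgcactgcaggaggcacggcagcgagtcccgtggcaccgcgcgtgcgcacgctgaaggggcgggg
Both hold the NRF1 core as its reverse complement, and neither holds the G-box core. Ndufa6 fell from 1300 ± 64.3 to 1114 ± 44.7 normalised counts (SD, n = 5, log2 fold change -0.23, adjusted p = 4.2e-06, edgeR). This was -0.11 with offsets and -0.055 with the principal length, where the call was lost (adjusted p = 0.18, edgeR).

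Lists of related genes showed how the machinery around the complexes behaved. Of 43 tested assembly factors of oxidative phosphorylation, 11 were lower (25.6%) and 2 higher (4.65%), where 20.1% and 20.6% of all genes were, and 7 and 5 with offsets, where 20.3% and 22.6% of all genes were. Lyrm7, which helps to insert the Rieske protein into complex III, fell from 127 ± 13.2 to 84.0 ± 13.8 normalised counts (SD, n = 5, log2 fold change -0.59, adjusted p = 3.4e-05, edgeR). Acad9, a complex I assembly factor, rose from 385 ± 18.3 to 521 ± 32.6 (SD, n = 5, 0.43, adjusted p = 3.5e-08, edgeR). Of 16 genes of cytochrome c and coenzyme Q synthesis, 5 were lower (31.2%) and 0 higher (4 and 2 with offsets), led by Coq8b at -0.49 ± 0.049 (adjusted p = 5.1e-11, edgeR). Of 19 genes of the TCA cycle and pyruvate entry, 7 were lower (36.8%) and 0 higher (7 and 1 with offsets). In both lists no gene was higher at an unadjusted p under 0.05 (edgeR) or called higher by DESeq2. Mpc1, a subunit of the mitochondrial pyruvate carrier, fell from 997 ± 37.1 to 737 ± 15.1 normalised counts (SD, n = 5, -0.44, adjusted p = 3.9e-12, edgeR).

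Genes that express the mitochondrial genome mostly did not pass. Of 29 tested, 4 were lower (13.8%) and 1 higher (3.45%), where 20.1% and 20.6% of all genes were. With offsets 5 were lower and 1 higher, where 20.3% and 22.6% of all genes were. Polg, the DNA polymerase of mitochondria, rose from 1593 ± 27.9 to 1887 ± 76.4 normalised counts (SD, n = 5, 0.24, adjusted p = 3.0e-08, edgeR). Rexo2, an oligoribonuclease of mitochondria, fell from 3429 ± 109.2 to 2768 ± 89.3 (SD, n = 5, -0.31, adjusted p = 7.5e-12, edgeR). Of 77 tested genes of the mitochondrial ribosome, 35 were lower (45.5%) and 1 higher, at a median of -0.11, and 18 were lower with offsets, at a median of -0.044. Over all genes 20.1% were lower and 20.6% higher without offsets, and 20.3% and 22.6% with offsets. Mrpl57 fell, at a log2 fold change of -0.33 (adjusted p = 2.7e-08, edgeR). Mrps18a was the exception and rose from 934 ± 82.2 to 1404 ± 45.6 normalised counts (SD, n = 5, 0.59, adjusted p = 9.4e-13, edgeR).

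Of 14 tested nuclear regulators of respiratory genes, 7 were higher (50%) and 1 lower, where 20.6% of all genes were higher and 20.1% lower. The counts were also 7 and 1 with offsets, where 22.6% and 20.3% of all genes were. Esrrg, an orphan nuclear receptor that acts on mitochondrial genes, had 145, 160, 193, 144 and 178 normalised counts in the non-targeting libraries and 259, 309, 272, 260 and 294 in the knockdown libraries. All knockdown libraries were above all non-targeting ones, at 0.77 ± 0.085 (SE, adjusted p = 4.5e-10, edgeR). The 6 other increases, named after their values were seen, were in Ppargc1a (0.40), Atf5 (0.30), Esrra (0.26), Mlxip (0.23), Yy1 (0.22) and Gabpb1 (0.18). Nrf1 and Gabpa, the factors of the NRF1 and ETS words, were at -0.0047 ± 0.037 and 0.013 ± 0.032 and did not pass (adjusted p = 0.93 and 0.77, edgeR). Hif1a fell from 2603 ± 53.0 to 2365 ± 48.4 normalised counts (SD, n = 5), at -0.14 (adjusted p = 0.00012, edgeR).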

How the data were processed

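Messenger RNA of 5 non-targeting and 5 Creb3l1-shRNA1 libraries was selected by poly(A) tail and sequenced on a HiSeq 4000. Per the labels and the study's methods, the authors aligned reads with STAR to GRCm38, counted them with featureCounts on Ensembl 97 and tested them with DESeq2. The deposited values are raw read counts per gene, and how reads matching several places were counted is not given in the sources used here. Labels number the samples, and whether the 5 libraries of a line came from separate transductions is not stated, so p-values measure the spread between these libraries. The labels do not say whether the numbers pair libraries across lines, and the main fit treated the libraries as unpaired.

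Counts were tested with edgeR 4.0.16 in R 4.3.3 (TMM scaling, filterByExpr, robust quasi-likelihood, Benjamini-Hochberg over 14336 genes, adjusted p under 0.01). The SE of a log2 fold change is its size divided by the square root of the F statistic. Offsets for GC content and length were fitted per library as smooth curves with 5 degrees of freedom and were then given to edgeR. Alternatives included DESeq2 1.42.0 and other scalings, and the closing section gives their effect. The offsets with the principal transcript, the fit without robust shrinkage, shares per kb of principal transcript and the lists with offsets were chosen after the data were seen. Transcript lengths, copies (blastn 2.17.0 and exact 75-base windows) and levels came from a GENCODE annotation of GRCm38, and promoters from RefSeq on GRCm38.p6. The scripts were tested on simulated data. Counting error is small at 17420698 counts or more, except for genes with few counts.

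Named genes were the mitochondrial protein genes, the largest 2 called increases and decreases among the subunits of each complex, listed isoforms and core subunits, Sdha, Creb3l1, and the largest called change each way in each related list (mean of at least 100 normalised counts). Ndufa6, Ndufs8, Ndufv2, Cox15, Uqcr10, Uqcrh, Nrf1 and Gabpa were named after their values were seen. Members and lists were chosen with earlier results of these data known.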

Additional observations from a re-analysis of the deposited data

Results flagged for a closer look

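In 110 groups of 5 libraries, 6 had a library whose distance from the nearest other exceeded Dixon's 95% critical value, where chance gives about 5% of groups. Among normalised counts, Cox7a2 was high in non-targeting replicate 4 (3311, next 3101) and Uqcrc1 in non-targeting replicate 2 (1509, next 1403). Cox8a was low in non-targeting replicate 5 (6043, next 6562). Cox5a (2695, next 3026) and Mrpl57 (742, next 842) were low in knockdown replicate 1. Mitochondrial ribosomal RNA took 0.451% of the counts in non-targeting replicate 3, where the next library of that line had 0.0539%.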

How the results depend on the processing

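Of 1064 log2 fold changes of named genes under alternatives, 990 kept their direction and their side of the threshold, 33 lost the call, 25 gained one and 16 in 10 genes changed sign, and 20 of 29 called genes passed under every alternative. The 35 lower and 4 higher nuclear members became 14 and 16 with offsets for GC content and longest transcript length, and 8 and 22 with the principal length. Their median of -0.076 became -0.0011 and 0.030. With these 2 offsets the sign changed for Sdhb (0.015 and 0.019), Cox4i1 (0.077 and 0.097) and Atp5g2 (0.048 and 0.10), and with the principal length for Cox8a (0.016) and Cox7a2l (0.0032). With 1 library left out, 5 genes that did not pass took either sign, with ranges of -0.33 to 0.099 for mt-Atp6, -0.030 to 0.28 for mt-Co3, -0.047 to 0.42 for mt-Nd6, -0.0043 to 0.027 for Cox7b and -0.0056 to 0.073 for Cox5a. In the mitochondrial ribosome, 35 lower genes became 18 with offsets. Among assembly factors 11 lower and 2 higher became 7 and 5, while higher genes went from 0 to 2 for cytochrome c and coenzyme Q and from 0 to 1 for the TCA cycle. The cause was not tested.

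The 2 lower mitochondrial members became 1 when libraries were scaled without the mitochondrial chromosome, 1 without a filter on low counts, 4 with either offsets and 3 without robust shrinkage. The labels do not say whether replicate numbers pair libraries across lines. Deviations of same-numbered libraries correlated between -0.133 and 0.128, and a shared batch was not tested. With the replicate block 0 mitochondrial members were lower and 36 nuclear members lower and 4 higher, Cox4i1 was called lower, and mt-Co1 and mt-Cytb had adjusted p of 0.016 and 0.020 (edgeR). When 1 library was left out, 22 to 35 nuclear members were lower and 3 to 5 higher, with a median of -0.085 to -0.066. In those fits 0 to 3 mitochondrial members were lower (0 without non-targeting replicate 3 or 5 or knockdown replicate 3), with a median of -0.22 to -0.11. The difference between lines in the mitochondrial share of counts, -0.766 percentage points, was -0.891 to -0.586 with 1 library left out and -0.384 without the largest gene of each genome, where the lines overlapped. Cox7a1 and Ndufa4l2 had 28 to 75 counts per library, which limits their precision.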
